A study of Mus musculus with 9 samples.

Results

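A set of 10 genes that prime blood stem cells for the lymphoid lineages was followed through 9 low-input RNA sequencing libraries of mouse haematopoietic stem cells. The members, chosen by name, were Flt3, Il7r, Notch1, Ikzf1, Bcl11a, Satb1, Tcf3, Ebf1, Dntt and Rag1, and all 10 were found among the 52550 gene identifiers of the count table. Old KO stood for 3 libraries from mice aged 22 to 24 months whose genotype is labelled B6N.129S6-Sphk2tm1Rlp/J (Sphk2 cKO). Their sample names call them a Sphk2 knockout, and no Cre or promoter is named. Old WT stood for 3 libraries from wild-type mice of the same age range, and young WT for 3 from wild-type mice aged 2 months, with no strain given for either. Each library came from 1000 marrow cells without lineage markers or CD48 and with Sca1, c-Kit and CD150. The 3 libraries of a group are called technical replicates and no mouse, litter or day is given, so the p-values cover the spread between libraries alone, and that spread may be technical.

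A stem cell that is primed for a lineage already holds a low level of that lineage's transcripts before it commits. In the lymphoid branch the cytokine receptors FLT3 and IL7R and the receptor NOTCH1 receive signals from the niche. Ikaros (Ikzf1), BCL11A, SATB1, E2A (the product of Tcf3) and EBF1 are DNA-binding factors that regulate lymphoid genes. Terminal transferase (Dntt) and the RAG1 recombinase act later, when antigen receptor genes are rearranged, and they mark the first committed lymphoid progenitors.

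The depth behind these genes differed between the groups. Counts in genes lay between 11284847 and 17544945 in old KO, 3145167 and 5115003 in old WT and 28088637 and 74021822 in young WT libraries. Counts outside annotated genes took 45.0% to 61.9% of all counts in old KO, 80.8% to 87.7% in old WT and 6.51% to 12.5% in young WT libraries. A background was therefore measured in each library, as the reads per kb of exon over 1134 olfactory receptor genes, a family that belongs to the nose. It was 5.55 to 7.29 reads per kb in old KO, 5.41 to 10.4 in old WT and 1.09 to 1.43 in young WT libraries. A gene was called above background in a library if it had 20 counts or more there and its count was 5 times or more what the density predicts for its exon length. By that measure 2877 to 4171 protein-coding genes stood above background in old KO, 640 to 1129 in old WT and 7379 to 8122 in young WT libraries. Sphk2 itself, sphingosine kinase 2, had 12, 23 and 8 counts in old KO, 20, 1 and 35 in old WT and 1684, 88 and 576 in young WT libraries. It was above background in 0 of 6 old libraries, so it did not tell old KO from old WT. Of 10 markers of the sort gate and of stem cell identity, 9 were above background in at least 2 libraries of old KO, 0 in old WT and 8 in young WT.

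In young WT, 3 members had reads well above background in every library. The stretches before their transcription starts are shown with that of Notch1, whose ratio to background was highest in old KO. The 250 bases are RefSeq's, of build GRCm38.p6, read 5′ to 3′ on the gene's strand and ending at the base before the start. They were searched on both strands for CAGNTG, the E box that E proteins bind, and for TGGGAA, the core that Ikaros binds, and capitals mark a match.

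Ikzf1, chr11:11685675-11685924 (plus strand): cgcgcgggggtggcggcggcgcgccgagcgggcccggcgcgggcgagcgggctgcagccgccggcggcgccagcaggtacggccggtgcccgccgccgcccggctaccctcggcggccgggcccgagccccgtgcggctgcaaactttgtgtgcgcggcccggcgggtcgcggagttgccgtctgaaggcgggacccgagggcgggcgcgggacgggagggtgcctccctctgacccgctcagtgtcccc
Bcl11a, chr11:24080445-24080694 (plus strand): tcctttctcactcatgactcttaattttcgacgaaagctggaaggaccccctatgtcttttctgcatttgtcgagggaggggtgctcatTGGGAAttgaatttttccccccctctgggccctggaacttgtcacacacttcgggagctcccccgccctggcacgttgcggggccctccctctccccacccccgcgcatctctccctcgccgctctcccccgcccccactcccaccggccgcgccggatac
Tcf3, chr10:80433636-80433885 (minus strand): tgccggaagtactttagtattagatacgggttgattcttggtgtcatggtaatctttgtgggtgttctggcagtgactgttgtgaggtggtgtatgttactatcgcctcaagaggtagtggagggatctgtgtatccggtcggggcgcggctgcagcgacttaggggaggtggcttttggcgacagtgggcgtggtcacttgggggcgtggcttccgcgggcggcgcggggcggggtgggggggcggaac
Notch1, chr2:26503823-26504072 (minus strand): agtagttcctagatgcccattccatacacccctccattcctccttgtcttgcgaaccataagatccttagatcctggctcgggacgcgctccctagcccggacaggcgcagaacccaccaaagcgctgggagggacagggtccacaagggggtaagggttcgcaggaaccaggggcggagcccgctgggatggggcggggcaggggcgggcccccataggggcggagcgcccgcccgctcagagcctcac

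CAGNTG was in none of these 4 windows and TGGGAA was in that of Bcl11a. RefSeq lists 2 starts for Ikzf1, and the window of start 1 is shown. The Ikzf1, Bcl11a and Notch1 windows lie inside the gene coordinates given below. Of 32851 RefSeq promoters of the same length, 44.8% held CAGNTG and 21.6% held TGGGAA. The Ikzf1 window was 82.0% G and C and the Tcf3 window 59.6%, with Bcl11a at 62.0% and Notch1 at 66.0%. The letters describe the windows and were not tied to any level measured here.

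Ikzf1, Bcl11a and Tcf3 were the members with the clearest transcripts, and they were clear in young WT cells. The old KO libraries had 2, 2 and 3 of the 10 members above background, each old WT library had 0 and each young WT library had 4. Protein-coding genes above background ran in the same order, at 2877 to 4171 in old KO, 640 to 1129 in old WT and 7379 to 8122 in young WT. The order of the groups is therefore not particular to the members, and no share over all genes was computed. Bcl11a and Notch1 were the members above background in at least 2 old KO libraries. In the plot of counts over background, Tcf3 and Ikzf1 stood at 0.832 to 1.34 times background in the old WT libraries and at 246 times or more in every young WT library.

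**Figure D1:**
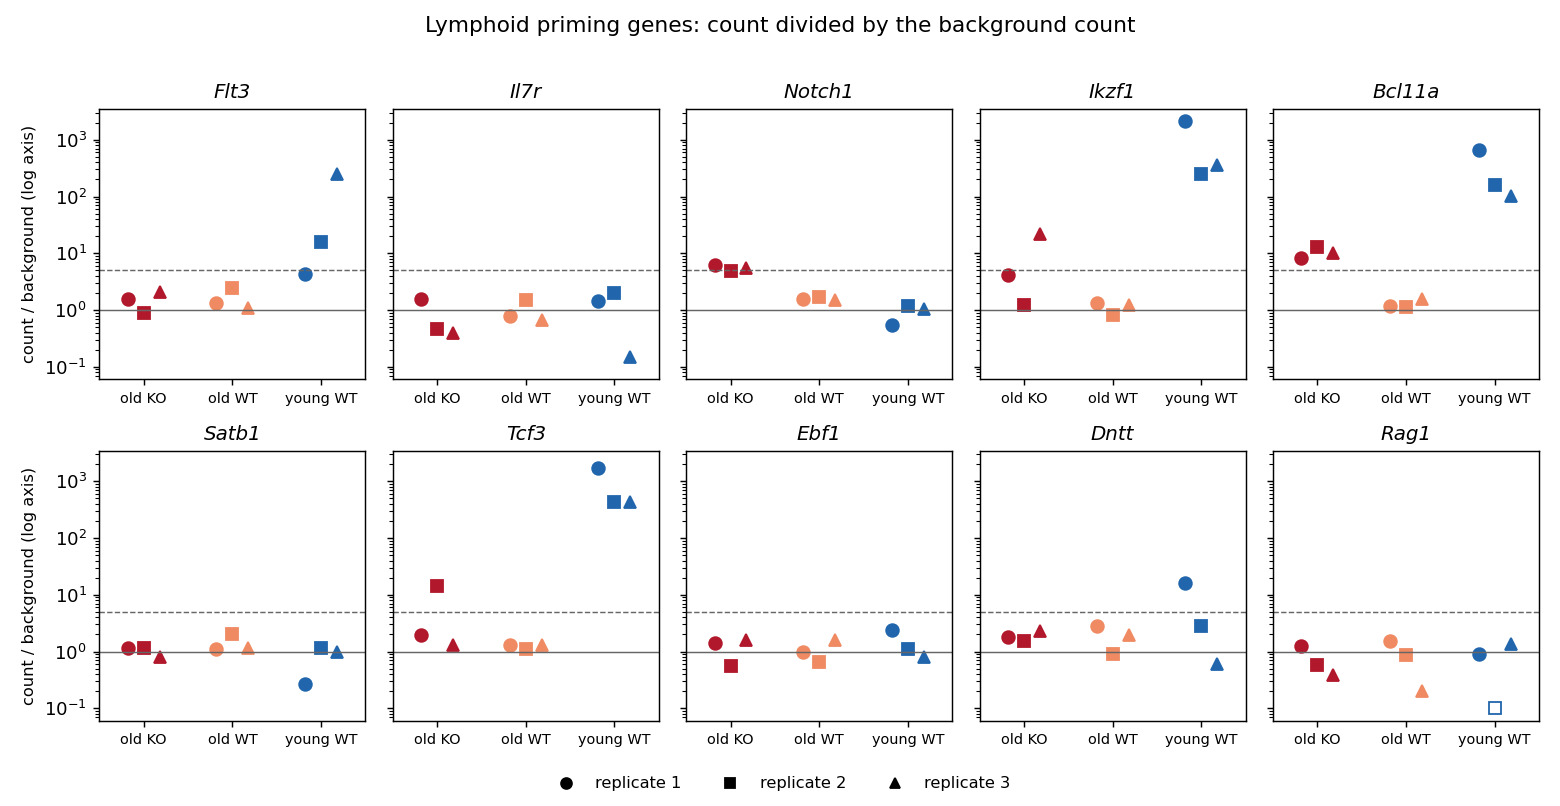
Count of each gene divided by the count that the background density gives (log axis), for 3 old KO, 3 old WT and 3 young WT libraries, with 1 point per library. The solid line marks the background, the dashed line 5 times the background, and the open square stands for a count of 0 and is drawn at 0.1. Old WT points of all 10 genes lie below the dashed line, while Bcl11a in old KO lies above it at 8.20, 13.2 and 9.95.

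Ikzf1 (chr11:11685003-11772926, plus strand, mm10) encodes Ikaros, a zinc finger factor without which B cells do not form in mice. It had 162, 52 and 699 counts in old KO, 77, 26 and 74 in old WT and 14336, 1556 and 2997 in young WT libraries. Scaled to counts in genes, the levels were 12.04, 4.61 and 39.8 CPM (counts scaled to a common library total) in old KO, 15.1, 8.27 and 21.5 in old WT and 193.7, 55.4 and 96.6 in young WT. The old KO and old WT values overlapped, and all 6 lay under the lowest young WT library. Against background, the old KO libraries were uneven, at 4.19, 1.23 and 21.8 times, and replicate 3 was the one above it. The old WT libraries stood at 1.34, 0.832 and 1.23 times background, and the young WT libraries at 2107, 246 and 364 times. In the test of all genes (edgeR's quasi-likelihood F test with Benjamini-Hochberg adjustment), Ikzf1 fell in old WT against young WT by 2.95 on the log2 scale (SE 1.21, adjusted p = 0.0374). That call was lost without any 1 of the old WT libraries or without young WT replicate 1, with adjusted p between 0.0650 and 0.112. Old KO against young WT gave -2.61 ± 1.19 (SE, adjusted p = 0.0692), and without old KO replicate 3 it gave -3.79 (adjusted p = 0.0356). Leaving out any other library gave no call, with adjusted p between 0.0662 and 0.186 in edgeR's test.

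Tcf3 (chr10:80409514-80433647, minus strand) encodes the E proteins E12 and E47, which begin the lymphoid programme and are held back by Id proteins. Its counts were 54, 415 and 29 in old KO, 53, 24 and 54 in old WT and 8060, 1888 and 2522 in young WT libraries. The levels were 4.01, 36.8 and 1.65 CPM in old KO, 10.4, 7.63 and 15.7 CPM in old WT and 108.9, 67.2 and 81.3 CPM in young WT. Every old library lay below every young WT library, and old KO replicate 2 stood apart from the other old KO libraries at 14.1 times background. The difference of old WT from young WT was -2.93 ± 1.29 on the log2 scale (SE, adjusted p = 0.0510 in edgeR's test), just outside the threshold. It passed the threshold without any 1 of the old KO libraries, which are not in this comparison, with adjusted p between 0.0291 and 0.0428. Without any 1 of the old WT or young WT libraries it stayed outside, with adjusted p between 0.0528 and 0.133 in edgeR's test. Old KO against young WT gave -2.60 ± 1.27 (SE, adjusted p = 0.0876), and -4.92 (adjusted p = 0.0306) without old KO replicate 2. Leaving out any other library gave no call, with adjusted p between 0.0952 and 0.21 in edgeR's test.

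Bcl11a (chr11:24078056-24174123, plus strand) encodes a zinc finger repressor needed for B cells and known for silencing fetal globin. It had 724, 1263 and 727 counts in old KO, 152, 82 and 218 in old WT and 10053, 2280 and 1908 in young WT libraries. In CPM it stood at 53.8, 111.9 and 41.4 in old KO, 29.7, 26.1 and 63.2 in old WT and 135.8, 81.2 and 61.5 in young WT. On this scale the groups overlapped. Measured against background they did not: the ratios were 8.20, 13.2 and 9.95 in old KO, 1.16, 1.15 and 1.59 in old WT and 648, 158 and 102 in young WT. It was the only member above background in all 3 old KO libraries. The fitted difference of old WT from young WT was -1.23 ± 1.04 (SE, adjusted p = 0.305), and that of old KO from old WT was 0.80 ± 1.03 (SE, adjusted p = 0.525 in edgeR's test). DESeq2 with its own size factors gave 2.33 for old KO against old WT (adjusted p = 0.0155), the one setting in which Bcl11a passed the threshold there.

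Notch1 (chr2:26457903-26516663, minus strand) encodes the receptor that directs progenitors to the T lineage. It had 583, 510 and 436 counts in old KO, 218, 131 and 225 in old WT and 9, 18 and 21 in young WT libraries. In old KO it stood at 6.11, 4.92 and 5.52 times background, and in old WT at 1.55, 1.70 and 1.52 times. Its young WT counts were those of the background, at 0.537, 1.16 and 1.04 times the expected count. The 3 groups did not overlap on this measure, with old KO highest and young WT lowest, though old KO replicate 2 fell just short of 5 times. In CPM, by contrast, old KO had 43.3, 45.2 and 24.9 and old WT had 42.6, 41.7 and 65.3, which overlapped, and young WT had 0.122, 0.641 and 0.677. Notch1 exons are 57.1% G and C. A second background, taken from protein-coding genes of like GC content with almost no reads in young WT libraries, gave ratios of 9.63, 8.05 and 9.93 in old KO and 2.65, 2.91 and 2.49 in old WT. That background was added after the data were seen, and its genes were chosen on young WT counts, so no young WT ratio is given for it. In edgeR's test Notch1 was higher in old KO than in young WT by 6.29 on the log2 scale (SE 1.35, adjusted p = 0.00889). It was also higher in old WT than in young WT, by 6.69 (adjusted p = 0.000857 in edgeR's test). Old KO against old WT gave -0.40 ± 1.08 (SE, adjusted p = 0.761 in edgeR's test).

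Flt3 (chr5:147330741-147400489, minus strand) encodes the receptor whose surface level separates multipotent progenitors from stem cells. Its counts were 65, 40 and 70 in old KO, 83, 83 and 71 in old WT and 31, 107 and 2236 in young WT libraries. The levels were 4.83, 3.54 and 3.99 CPM in old KO, 16.2, 26.4 and 20.6 CPM in old WT and 0.419, 3.81 and 72.1 CPM in young WT, where replicate 3 held most of the signal. Over background, old KO stood at 0.889 to 2.04 times, old WT at 1.10 to 2.48 times and the young WT libraries at 4.26, 15.8 and 254 times. The fitted difference of old WT from young WT was -0.27 ± 1.36 (SE, adjusted p = 0.869 in edgeR's test). Without young WT replicate 3 it was 3.32 (adjusted p = 0.0273), with the sign turned.

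Il7r, Satb1, Ebf1 and Rag1 were above background in none of the 9 libraries. Il7r, the receptor of the main B and T progenitor cytokine, had 49, 16 and 10 counts in old KO, 37, 38 and 32 in old WT and 8, 10 and 1 in young WT libraries. Rag1, which cuts antigen receptor genes together with RAG2, had 55, 28 and 14 counts in old KO, 99, 31 and 14 in old WT and 7, 0 and 13 in young WT libraries. Satb1, a chromatin organiser of T cells, had 84 to 161 counts in old KO, 208 to 231 in old WT and 6 to 27 in young WT. Ebf1, the factor that specifies B cells, had 40 to 93 counts in old KO, 34 to 165 in old WT and 11 to 28 in young WT. Every one of these counts lay between 0 and 2.44 times background. At this depth the 4 genes were not told from background in any group.

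Dntt came above background in 1 library, young WT replicate 1. It had 28, 26 and 29 counts in old KO, 65, 11 and 47 in old WT and 44, 7 and 2 in young WT libraries, and the 44 counts were 16.3 times background. The same library had 7 of 12 B cell markers above background, among them Igkc, an antibody light chain gene, with 753 counts, while the other young WT libraries had 2 and 1 of the 12. The young WT libraries also differed in the list of lymphoid progenitor genes, with 11, 6 and 5 of 20 above background. Whether B cell transcripts had a part in the Dntt count was not tested.

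**Figure D2:**
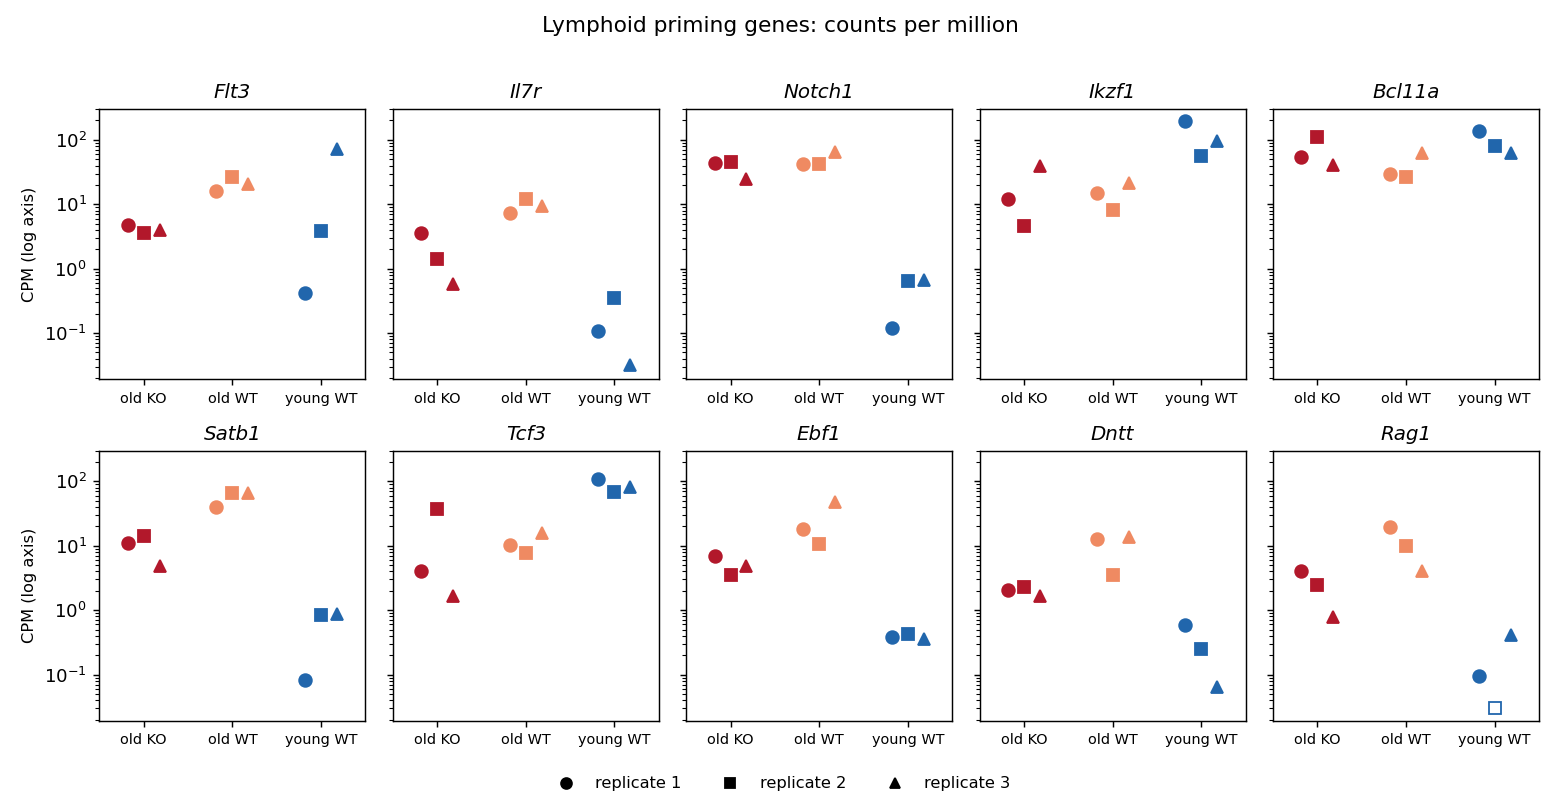
CPM of each gene (log axis) in 3 old KO, 3 old WT and 3 young WT libraries, with 1 point per library; the open square stands for 0 CPM and is drawn at 0.03. Ikzf1 and Tcf3 are highest in young WT, Flt3 in young WT spans 0.419 to 72.1 CPM, and Il7r, Satb1, Ebf1, Dntt and Rag1, with few reads in any library, are lowest in young WT.

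Levels can be set beside each other between genes per kb of exon, in RPKM. In old KO, Bcl11a came first with 5.24 ± 2.86 RPKM, followed by Tcf3 with 3.50 ± 4.86, Ikzf1 with 3.26 ± 3.21 and Notch1 with 2.66 ± 0.790 (SD, n = 3), none of which differed from its neighbour beyond the spread. In old WT the 10 members lay between 1.68 and 4.34 RPKM, and Dntt was highest. Each member stood at 0.204 to 2.86 times background in the old WT libraries. The order in young WT was Tcf3 with 21.2 ± 5.25, Ikzf1 with 19.9 ± 12.3, Bcl11a with 7.05 ± 2.92 and Flt3 with 4.12 ± 6.54 RPKM (SD, n = 3). Tcf3 and Ikzf1 did not differ beyond their spread, nor did Bcl11a and Flt3. The other members lay between 0.0259 and 0.132 RPKM in young WT.

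Old WT against young WT addressed age. Age and the level of background cannot be told apart here, since both separate the same libraries. By edgeR's test on counts scaled to counts in genes, 6 of the 10 members were called higher (Dntt, Il7r, Notch1, Satb1, Rag1 and Ebf1) and 1 lower (Ikzf1). Over all 32582 genes tested, 68.4% were called higher and 3.48% lower, and the median fold change of the members was 5.40 on the log2 scale, against 5.30 over all genes. A share of 6 in 10 near that background is no result about the members, and none of the 6 was above background in old WT. With TMM factors the median over all genes was 1.37, against 5.30 with total counts. The members then called were Ikzf1 at -7.25, Tcf3 at -7.11 and Bcl11a at -5.48, all lower (adjusted p 0.00773, 0.00759 and 0.00904 in edgeR's test), with none called higher. Over all genes TMM called 18.6% higher and 18.4% lower, so that 50.3% of its calls were higher, against 95.2% with total counts. Set against background, 4 of the 10 members had old WT ranges wholly below young WT (Flt3, Ikzf1, Bcl11a and Tcf3), as had 27.0% of all genes, and Notch1 lay wholly above, as did 9.23%. Ikzf1 and Tcf3 were below young WT in CPM and against background alike. In CPM 5.87% of all genes lay wholly below young WT. The 6 members called higher lay wholly above it in CPM, as did 65.0% of all genes. In bulk libraries such as these, fewer cells that hold a transcript and less of it per cell cannot be told apart.

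Old KO against old WT addressed the Sphk2 genotype at the same age. Genotype cannot be told apart here from depth or from the background's part of the counts, since all of them separate the same libraries. No strain is given for old WT, so strain may differ too. None of the 10 members was called, and 2 of all genes were, both higher (0.00614% higher, 0.0% lower), with 9528 genes at an unadjusted p under 0.05 in edgeR's test. The fitted differences ran between -2.53 for Satb1 and 0.80 for Bcl11a, with a median of -2.24 against -1.92 over all genes. Fits by DESeq2 and limma-voom called 2181 and 319 genes, and of the members DESeq2 called Bcl11a. Measured against background, Notch1 and Bcl11a lay wholly above old WT, which is 2 of 10 members beside 12.8% of all genes, and 0 lay wholly below, beside 4.36%. On the CPM scale Notch1 and Bcl11a overlapped between the groups. There Flt3, Dntt, Il7r, Satb1 and Ebf1 lay wholly below old WT, which is 5 of 10 members beside 48.8% of all genes, and 0 lay wholly above, beside 1.91%. The background took 4.03% to 8.24% of counts in genes in old KO and 22.0% to 38.5% in old WT libraries, and its part in the CPM values was not tested.

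Old KO against young WT compared the groups with more reads. Age, Sphk2 genotype and background all differed between them and cannot be told apart here. The members called higher were again Dntt, Il7r, Notch1, Satb1, Rag1 and Ebf1, beside 52.7% of all genes, and none was called lower, beside 3.93%. This comparison shares the young WT libraries with that of old WT against young WT, so like results in both are not independent. Notch1 had the largest fold change of the 6, at 6.29, against 2.67 to 4.06 for the others and a median of 3.24 over all genes. It had the largest of them in old WT against young WT as well, at 6.69. In old KO it was the only one of the 6 above background. With TMM factors Notch1 was the 1 member called higher, at 4.31 (adjusted p = 0.0415), while Ikzf1 at -4.60 (adjusted p = 0.0437) and Tcf3 at -5.14 (adjusted p = 0.0361) were called lower by edgeR's test. Over all genes TMM called 6.92% higher and 5.84% lower, so that 54.3% of its calls were higher, against 93.1% with total counts. Against background, Flt3, Ikzf1, Bcl11a and Tcf3 lay wholly below young WT, as did 21.2% of all genes, and Notch1 lay wholly above, as did 8.64%.

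**Figure D3:**
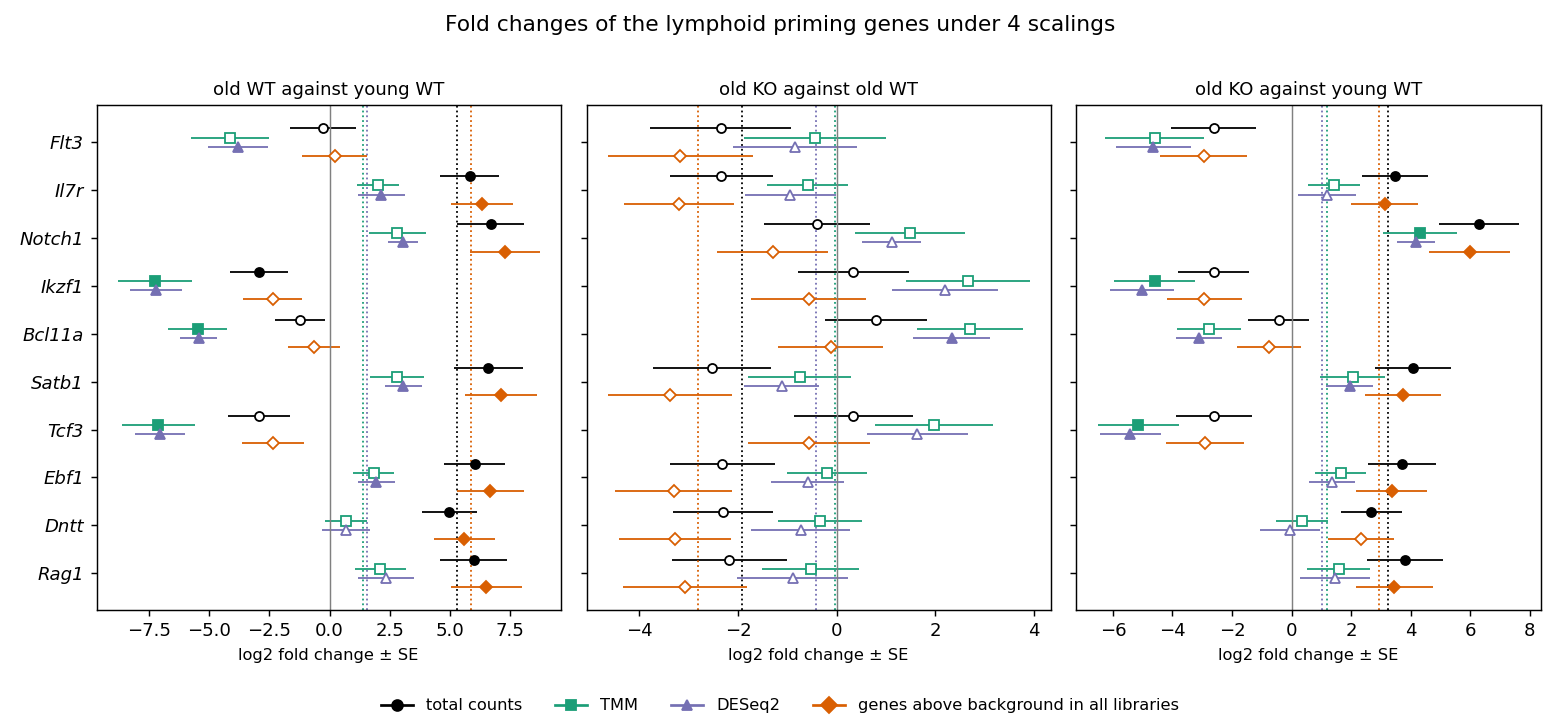
Log2 fold change with its standard error for each gene in the 3 comparisons (left to right: old WT with young WT, old KO with old WT and old KO with young WT) under 4 scalings, where positive values are higher in the group named first. Filled symbols have an adjusted p under 0.05, and the dotted line of each colour marks the median of all genes tested, which for old WT against young WT is 5.30 with total counts. Ikzf1, Bcl11a and Tcf3 lie left of every median line in the comparisons with young WT.

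Genes that work with the members were counted in 7 lists. Protein-coding genes above background were fewest in old WT and most in young WT libraries, so that order is not particular to any list. Of 24 genes that carry FLT3 and IL7 receptor signals, 14 were above background in at least 2 libraries of old KO, 0 of old WT and 22 of young WT. Crlf2, the partner of IL7R in the TSLP receptor, had 1883, 1904 and 3718 counts in old KO, 16, 6 and 24 in old WT and 6980, 3686 and 8913 in young WT libraries. Mcl1, a survival factor downstream of these receptors, had 19998, 15299 and 26123 counts in old KO, 555, 33 and 88 in old WT and 106923, 31624 and 57731 in young WT. Both fell in old WT against young WT, Crlf2 by 5.42 and Mcl1 by 4.94 on the log2 scale (adjusted p 0.00114 and 0.000794 in edgeR's test). In old KO against young WT they differed by 0.02 ± 0.99 and -0.03 ± 0.84 (SE, adjusted p 0.987 and 0.977). Crlf2 and Mcl1 were thus above background in all 3 old KO libraries, while Flt3 and Il7r were so in none. Il7 and Tslp, the cytokines, were called higher in old WT while at 0.391 to 3.19 times background in the old WT libraries. Over the whole list 3 of 24 were called higher and 6 lower in old WT against young WT, with a median of -0.71 beside 5.30 over all genes, of which 68.4% were called higher and 3.48% lower. In old KO against young WT 3 of 24 were called higher and 2 lower, with a median of 0.45 beside 3.24 over all genes, of which 52.7% were called higher and 3.93% lower. The balance turned with TMM factors, to 0 higher and 17 lower in old WT against young WT (median -4.45) and 0 higher and 5 lower in old KO against young WT (median -1.50), beside medians of 1.37 and 1.20 over all genes. The TMM shares over all genes were 18.6% higher and 18.4% lower for old WT, and 6.92% and 5.84% for old KO.

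Of 28 genes of the Notch pathway, 5 were above background in at least 2 libraries of old KO, 1 of old WT and 19 of young WT. Nrarp, a direct target and feedback inhibitor of Notch, had 3, 3 and 0 counts in old KO, 4, 0 and 2 in old WT and 1098, 119 and 669 in young WT libraries. It fell in old KO against young WT by 6.39 on the log2 scale (SE 1.42, adjusted p = 0.00889) and in old WT against young WT by 4.81 (SE 1.34, adjusted p = 0.00444 in edgeR's test). Hes1, another target, named here after its values were seen, had 2650, 2838 and 5364 counts in old KO, 201, 30 and 19 in old WT and 7610, 5656 and 9447 in young WT. It fell in old WT against young WT by 3.48 (adjusted p = 0.0103) and differed by 0.31 ± 1.01 in old KO against young WT (SE, adjusted p = 0.808). Hes5, also a target, was at 0 in every WT library and at 0, 1 and 3 counts in old KO. Dll1, Dtx1 and Notch4 were called higher in old WT and were at background there. Of the 27 genes tested, 6 were called higher and 2 lower in old WT against young WT, and 2 higher and 2 lower in old KO against young WT, beside the shares over all genes of 68.4% and 3.48% in old WT against young WT and 52.7% and 3.93% in old KO against young WT. With TMM factors 0 were called higher and 10 lower in old WT against young WT, and 0 higher and 3 lower in old KO against young WT. Over all genes the TMM shares were 18.6% higher and 18.4% lower for old WT, and 6.92% and 5.84% for old KO.

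E proteins are opposed by Id proteins, which bind them and keep them off DNA. Id2 had 165, 2951 and 3303 counts in old KO, 48, 18 and 78 in old WT and 17, 87 and 63 in young WT libraries. It was above background in all 3 old KO libraries, in none of old WT and in 2 of young WT. In old KO against young WT it rose by 6.43 on the log2 scale (SE 1.59, adjusted p = 0.00942), and with TMM factors the difference was 4.63 (adjusted p = 0.0504 in edgeR's test). Id1 and Id3, named after their values were seen, averaged 639 and 140 CPM in old KO, 67.0 and 5.69 CPM in old WT and 659 and 196 CPM in young WT. In old KO libraries, Id1, Id2 and Id3 were all above background, and Tcf3 was so in 1 of 3. Young WT, with the Id1 and Id3 means of 659 and 196 CPM, had Tcf3 above background in all 3 libraries. A link between the Id genes and Tcf3 was not tested. Irf4, Spib and Pax5, factors of B cells, were called higher in old WT and lay at background there. Of the 19 genes of this list, 8 were above background in at least 2 libraries of old KO, 3 of old WT and 12 of young WT.

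Ikaros works with relatives and with repressor complexes. Of 18 such genes, 8 were above background in at least 2 libraries of old KO, 0 of old WT and 15 of young WT. Ctbp1, a co-repressor, fell in old WT against young WT by 3.80 and in old KO against young WT by 3.50 on the log2 scale (adjusted p 0.00722 and 0.0190 in edgeR's test). It averaged 25.3 CPM in old KO, 20.5 in old WT and 286 in young WT. Mta1, of the NuRD complex, fell in old WT against young WT by 3.32 (adjusted p = 0.0302), and in old KO it was above background in all 3 libraries. The relative Ikzf4 had 55, 524 and 198 counts in old KO, 32, 196 and 96 in old WT and 6, 14 and 21 in young WT libraries, and rose in old KO against young WT by 5.62 (adjusted p = 0.0113). Ikzf4 was above background in 2 of 3 old KO, 1 of 3 old WT and 0 of 3 young WT libraries. Ikzf3, the relative of later B cells, was called higher in old WT and lay at background in all 9 libraries.

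**Figure D4:**
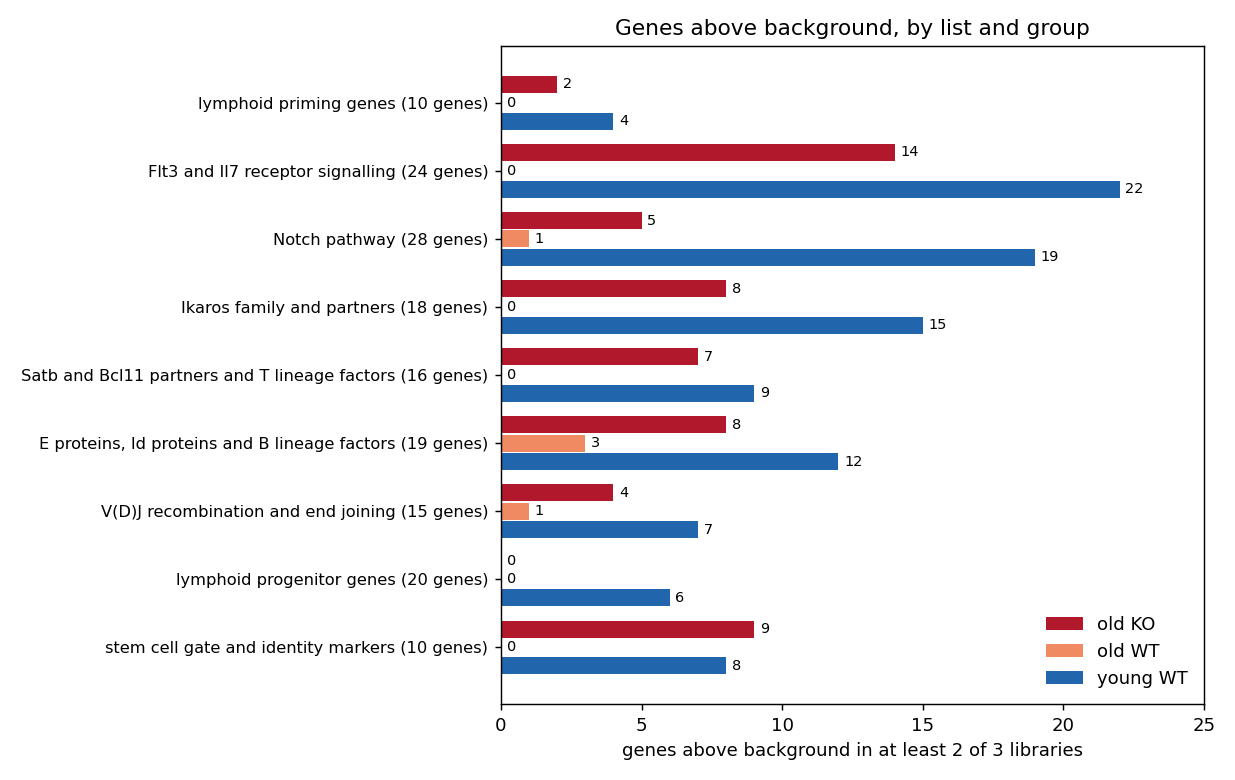
Number of genes above background in at least 2 of 3 libraries, for the lymphoid priming genes, 7 lists of partner genes and the stem cell markers, in old KO, old WT and young WT; the number of genes in each list is in brackets. The priming genes give 2, 0 and 4 of 10, and the stem cell markers 9, 0 and 8 of 10. Protein-coding genes above background were also fewest in old WT and most in young WT libraries.

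Partners of Satb1 and Bcl11a and factors of the T lineage gave 7 of 16 genes above background in at least 2 libraries of old KO, 0 of old WT and 9 of young WT. Gfi1, Bcl11b and Tcf7, which have some of the largest folds of this list, were above background in no library. Of 15 genes of V(D)J recombination and end joining, 4 were above background in at least 2 libraries of old KO, 1 of old WT and 7 of young WT. The 4 of old KO, named after their values were seen, were Xrcc6, Hmgb1, Hmgb2 and H2afx, which serve DNA repair and chromatin in cells of all kinds. Rag2, the partner of Rag1, had 36, 17 and 45 counts in old KO, 25, 27 and 19 in old WT and 4, 3 and 8 in young WT libraries, none of them above background. Lig4 and Dclre1c were also above background in none, and Polm, a polymerase related to terminal transferase, stood above it in old KO replicate 1 with 961 counts, against 23 and 14 in the other old KO libraries.

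Of 20 genes of lymphoid progenitors, 0 were above background in at least 2 libraries of old KO, 0 of old WT and 6 of young WT. Of the 19 tested, 9 were called higher and 0 lower in old WT against young WT, beside 68.4% and 3.48% of all genes. In old KO against young WT 6 were called higher and 2 lower, beside 52.7% and 3.93%. With TMM factors 2 were higher and 2 lower in old WT, beside 18.6% and 18.4%. In old KO they were 1 and 3, beside 6.92% and 5.84%. Cd27, a surface receptor of early lymphoid progenitors, named after its values were seen, had 68, 43 and 45 counts in old KO, 368, 36 and 22 in old WT and 33244, 3146 and 1196 in young WT libraries. It fell in old KO against young WT by 5.71 on the log2 scale (SE 1.47, adjusted p = 0.0100), and in old WT against young WT the difference was -2.74 ± 1.28 (SE, adjusted p = 0.0653 in edgeR's test). Ccr7 was carried by old WT replicate 1, with 3165 counts against 14 and 11 in the other old WT libraries. Ccr9 and Blnk lay at background in each old library, and so did Gpr183, which had 19 to 31 counts in old KO, 22 to 42 in old WT and 0 in each young WT library.

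Markers of other cells were read beside these results. B cell markers above background numbered 0 to 1 of 12 per library in old KO, 0 to 1 in old WT and 1 to 7 in young WT, with a summed level of 31.5 to 181 CPM in old KO, 120 to 300 in old WT and at most 101 in young WT. T and NK cell markers numbered 0 of 12 in old KO, 0 to 1 in old WT and 2 to 3 in young WT, with a summed level of 8.89 to 19.9 CPM in old KO, 38.8 to 129 in old WT and 80.3 to 175 in young WT. No young WT library stood below an old KO library in that sum. Dendritic cell markers numbered 2 to 3 of 9 in old KO, 0 to 1 in old WT and 3 to 4 in young WT, and myeloid markers 3 to 8 of 12 in old KO, 3 to 4 in old WT and 6 to 7 in young WT. Erythroid markers numbered 0 to 1 of 10 in old KO, 0 in old WT and 5 to 8 in young WT, and megakaryocyte markers 3 to 4 of 8 in old KO, 0 to 1 in old WT and 6 to 7 in young WT. Cd48, which the sort excluded, was above background in young WT replicate 2 alone, with 244 counts. Their part in the members' levels was not tested.

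For the members above background in at least 2 libraries of a group, the genes with the most similar levels over the 9 libraries were sought among 7267 genes with at least 10 CPM in young WT. Likeness was the root mean square difference of centred log2(CPM + 1). Ikzf1 was closest to Aimp1 (0.359), Naa38 (0.386) and Sod2 (0.387), and Tcf3 to Cdk19 (0.370), Trim35 (0.454) and Pfkl (0.465). Bcl11a was closest to Celf2 (0.422), Rpl14-ps1 (0.464) and Rhot2 (0.494), and Flt3 to Zbtb39 (0.348), Qprt (0.411) and Diaph3 (0.415). No match is given for Notch1, since the minimum in young WT left out genes that, like it, had few reads there. The 9 libraries differ in depth and background, and the part of these in the likeness was not tested.

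Several members share their locus with other genes, and whether the counting used strand is not given. B230118H07Rik, a protein-coding gene on the same strand, spans Rag1, and had 51, 29 and 40 counts in old KO, 51, 60 and 64 in old WT and 1477, 426 and 1880 in young WT libraries. Rag1 itself stayed at 7, 0 and 13 counts in young WT. Opposite Notch1 lies 0610009E02Rik, with 4, 1 and 119 counts in old KO, 0, 0 and 13 in old WT and 0, 0 and 2 in young WT, fewer in each library than Notch1 had. Opposite Flt3, Gm26597 had 32, 18 and 9 counts in old KO, 28, 41 and 11 in old WT and 1, 1 and 0 in young WT, so the 2236 counts of Flt3 in young WT replicate 3 had no counterpart there.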

How the data were processed

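RNA was measured in 9 libraries of sorted marrow stem cells, 3 per group, after poly(A) tailing, 13 cycles of amplification and paired reads of 150 bp, per the labels' protocols. The authors deposited raw read counts of every gene in every library. HTSeq (version 0.10.0), STAR (2.6.1d), Trim Galore (0.6.2), edgeR (3.24.3) and mm10 are listed, without role or order, in the submitters' processing notes. Neither annotation nor strand setting is given in the sources used here. The 5 lines that name no gene were left out of totals and fits. GENCODE M21 of the same genome gave symbols for 52403 of 52550 identifiers, coordinates and exon lengths.

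Counts were tested with edgeR 4.0.16 (quasi-likelihood F test, R 4.3.3) over all 9 libraries, with a mean per group, scaling to total counts in genes, filterByExpr and Benjamini-Hochberg adjustment at 0.05 over 32582 genes. Total counts were chosen because earlier results of these data showed TMM factors to rest on the many genes at background. A positive fold change is higher in the group named first. The fit was tested on simulated data with 200 changed genes. Alternatives were TMM and upper-quartile factors, DESeq2 1.42.0, limma-voom 3.58.1, other filters, the 6 libraries compared, a replicate block, subtracted background and leaving out each library. The background leaves out the densest 1% of olfactory receptor genes. Precision is limited by 3 libraries per group and by depth in old WT.

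The members and lists were chosen with earlier results of these data known. Named were all members. Of each partner list, up to 4 called genes with the largest fold changes were named. A gene that this rule names is not reported here. Of each member above background in at least 2 libraries of a group, the 3 most similar genes were named, except for Notch1. Genes of the marker lists are given by counts and summed levels. Promoters were found for all 10 members in RefSeq's table.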

Additional observations from a re-analysis of the deposited data

How the results depend on the processing

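Depth limits what old WT can show: background took 22.0% to 38.5% of its counts in genes, and no member stood above it there under either background. For old WT against young WT 23414 genes were called, and 12058 with TMM factors, 15046 with upper-quartile factors and 20 with background subtracted. In old KO against old WT 2 genes were called, and 149 with TMM factors, 2181 by DESeq2, 319 by limma-voom, 116 with no filter on low counts, 8046 from only the 6 libraries compared and 16 with background subtracted. Leaving out 1 library gave 0 to 5. For old KO against young WT 18438 genes were called, and 4158 with TMM factors, 6110 with upper-quartile factors, 9154 by DESeq2, 11182 from only the 6 libraries compared and 4 with background subtracted, which also tested fewer genes and left Il7r and Rag1 out.

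Of 564 values of members under alternatives, 480 stayed on their side of the threshold with no called value turning round, 52 lost a call, 30 gained one and 2 turned round. Those 2 were Flt3 in old WT against young WT without young WT replicate 3, at 3.32 (range without 1 library -0.85 to 3.32), and Dntt in old KO against young WT by DESeq2, at -0.05. The sign turned in 18 of the 564. Notch1 in old KO against young WT was called in every alternative except background subtraction, at 4.17 to 6.63, and at 9.72 (adjusted p = 0.181 in edgeR's test) with background subtracted. Ikzf1 in old WT against young WT was not called with background subtracted (-5.01) or, in a scaling added after the data were seen, over the 284 genes above background in every library (-2.36). In old KO against old WT, the fit of only the 6 libraries compared called Flt3 (-2.35), Dntt (-2.30) and Il7r (-2.34) lower, where 7691 of all 27824 genes tested were called lower and 355 higher. The causes were not tested.

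Libraries with the same replicate number had correlations between -0.033 and 0.021 in their deviations from the group mean. Libraries with different numbers had -0.026 to 0.037. The numbers thus gave no sign of a pairing. Deviations from a mean of 3 libraries cannot settle whether a mouse, litter or day was shared. With the replicate block 23142 genes were called for old WT against young WT, 15641 for old KO against young WT and 2 for old KO against old WT. Among members the replicate block moved Ikzf1 in old WT against young WT to an adjusted p of 0.0533 and Dntt in old KO against young WT to 0.0506 in edgeR's test.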
